A study of Rattus norvegicus with 2 samples.

Results

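The complement genes C1qa, C1qb, C1qc, C3, C1s and Serping1 were followed in single cells of the rat cochlear duct at postnatal day 1 (P1) and postnatal day 7 (P7). The members were chosen by symbol, and all 6 were found, in 1 row each, among the genes listed for both libraries. The tissue came from untreated Sprague-Dawley rats, and each age was 1 droplet library of cells from many pooled animals. The stria vascularis, the spiral ligament and the spiral ganglion were dissected away before dissociation, by the study's methods. How complete this removal was, was not tested. Neuron-like cells (289 at P1) and glia-like cells (14.6% of cells at P1 and 27.4% at P7) were still found. With 1 library per age no difference could be set against the spread between animals, so no p-value is given. Every interval below is a 95% interval that covers counting error only, and age and library cannot be told apart.

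Complement is a cascade of plasma and tissue proteins that tags cells and debris for uptake. C1q, built from the chains encoded by C1qa, C1qb and C1qc, recognises a target and carries the proteases C1r and C1s, which start the classical pathway. C3 is the point at which the pathways meet, and Serping1 encodes the C1 inhibitor, which inactivates C1r and C1s. Tissue macrophages are known as a main source of C1q, whereas fibroblasts are known to make C1r, C1s and the C1 inhibitor.

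The libraries held 14068 barcodes at P1 and 14501 at P7, with 114285848 and 101264868 unique molecular identifiers (UMIs, each standing for 1 captured RNA molecule). After the limits on cells, 12779 and 12581 cells remained, with medians of 6565 and 6878 UMIs, and 60 barcode sequences occurred in both libraries. Clusters were named from lists of marker genes, and 16 of the 26 clusters drew over 90% of their cells from 1 library. Macrophage-like cells formed 1 cluster of 190 cells at P1 (1.49% of cells) and 173 at P7 (1.38%). Mesenchyme-like cells formed 9 clusters with 9123 cells at P1 (71.4%) and 5878 at P7 (46.7%). Clusters 1, 2, 3, 8 and 10 held most of them at P1 and clusters 4, 5, 9, 10 and 12 at P7. All 14 listed macrophage markers, among them Csf1r, Aif1 and Cd68, were higher in the macrophage-like cluster than in mesenchyme in both libraries. The cluster was named from this same list, so these levels are no separate check of its name. The macrophage-like cluster also held neutrophil genes, such as S100a8 at 4265 CPM at P1 and 157 CPM at P7, where CPM is the summed UMIs of a gene over all UMIs of the class.

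The 3 C1q chains were found almost entirely in the macrophage-like cluster. CPM of these 3′ UMIs was not scaled by gene length, and whether different genes were captured and mapped alike was not tested. C1qa stood at 4101 CPM in macrophage-like cells at P1 (6250 UMIs, interval 4000 to 4204) and 2267 CPM at P7 (3057 UMIs, 2187 to 2349). C1qb stood at 5756 CPM at P1 and 2414 CPM at P7. C1qc stood at 4427 CPM at P1 and 2553 CPM at P7. C1qb thus had the most UMIs of the 3 chains at P1, and C1qc at P7. The cluster held 98.2% of all C1qa UMIs in kept cells at P1 (97.9% to 98.5%) and 83.4% at P7 (82.1% to 84.6%). For C1qb the shares were 98.2% and 84.3%, and for C1qc 98.2% and 84.1%.

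C1qb, C1qc and C1qa follow one another on chromosome 5 in the RefSeq annotation of GRCr8, a build other than the rn6 used for the counts. RefSeq promoters (250 bases before to 50 after the start) were at hand for 3 of the 6 members, and those of the C1q genes are shown because their chains move together across clusters. Both lie on the minus strand of GRCr8, C1qa at chr5:154419884-154420183 and C1qb at chr5:154407778-154408077. Capitals mark GAGGAA, a longer form of the motif bound by ETS factors such as PU.1, or its reverse complement TTCCTC. The shorter core GGAA was not searched.
C1qa: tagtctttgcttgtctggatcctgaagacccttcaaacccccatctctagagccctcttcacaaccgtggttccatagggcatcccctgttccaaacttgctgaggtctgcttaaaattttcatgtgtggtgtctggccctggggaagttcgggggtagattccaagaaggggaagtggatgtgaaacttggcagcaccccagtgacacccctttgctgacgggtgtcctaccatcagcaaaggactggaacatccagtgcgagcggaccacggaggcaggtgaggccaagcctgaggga
C1qb: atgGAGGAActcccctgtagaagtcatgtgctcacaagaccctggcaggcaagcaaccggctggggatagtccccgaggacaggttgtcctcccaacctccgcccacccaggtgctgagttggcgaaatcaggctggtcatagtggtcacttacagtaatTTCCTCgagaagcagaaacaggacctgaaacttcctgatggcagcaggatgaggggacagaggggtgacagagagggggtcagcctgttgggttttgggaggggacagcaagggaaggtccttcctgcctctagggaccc
The C1qb window held GAGGAA once on each strand and the C1qa window did not hold these letters, against 27.6% of 33469 promoters of the same length that held them on either strand. TATAAA, searched on both strands, was in neither window and in 14.2% of all promoters.

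Levels of the C1q chains were far lower outside the macrophage-like cluster. In mesenchyme, C1qa stood at 1.07 CPM at P1 (74 UMIs) and 6.11 CPM at P7 (291 UMIs). C1qb stood at 1.54 and 6.53 CPM there, and C1qc at 1.16 and 6.26 CPM. Endothelial-like cells came next after macrophages for every chain at both ages, with C1qa at 11.5 CPM at P1 and 24.9 CPM at P7. At P1 a single endothelial-like cell with 10 or more C1q UMIs held 93.8% of the C1q UMIs of its class, and at P7 a single cell held 70.6%. Without these cells the summed C1q level of endothelial-like cells was 1.64 CPM at P1 and 19.6 CPM at P7, against 3.77 and 18.4 CPM in mesenchyme treated alike. Below endothelial-like cells, C1qa did not differ beyond counting error between neighbouring classes at either age. C1qb differed between mesenchyme and neuron-like cells at P1, by a log2 ratio of 1.63 (0.048 to 3.94). C1qc differed between glia-like cells and mesenchyme at P7, by 0.30 (0.016 to 0.58).

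**Figure D1:**
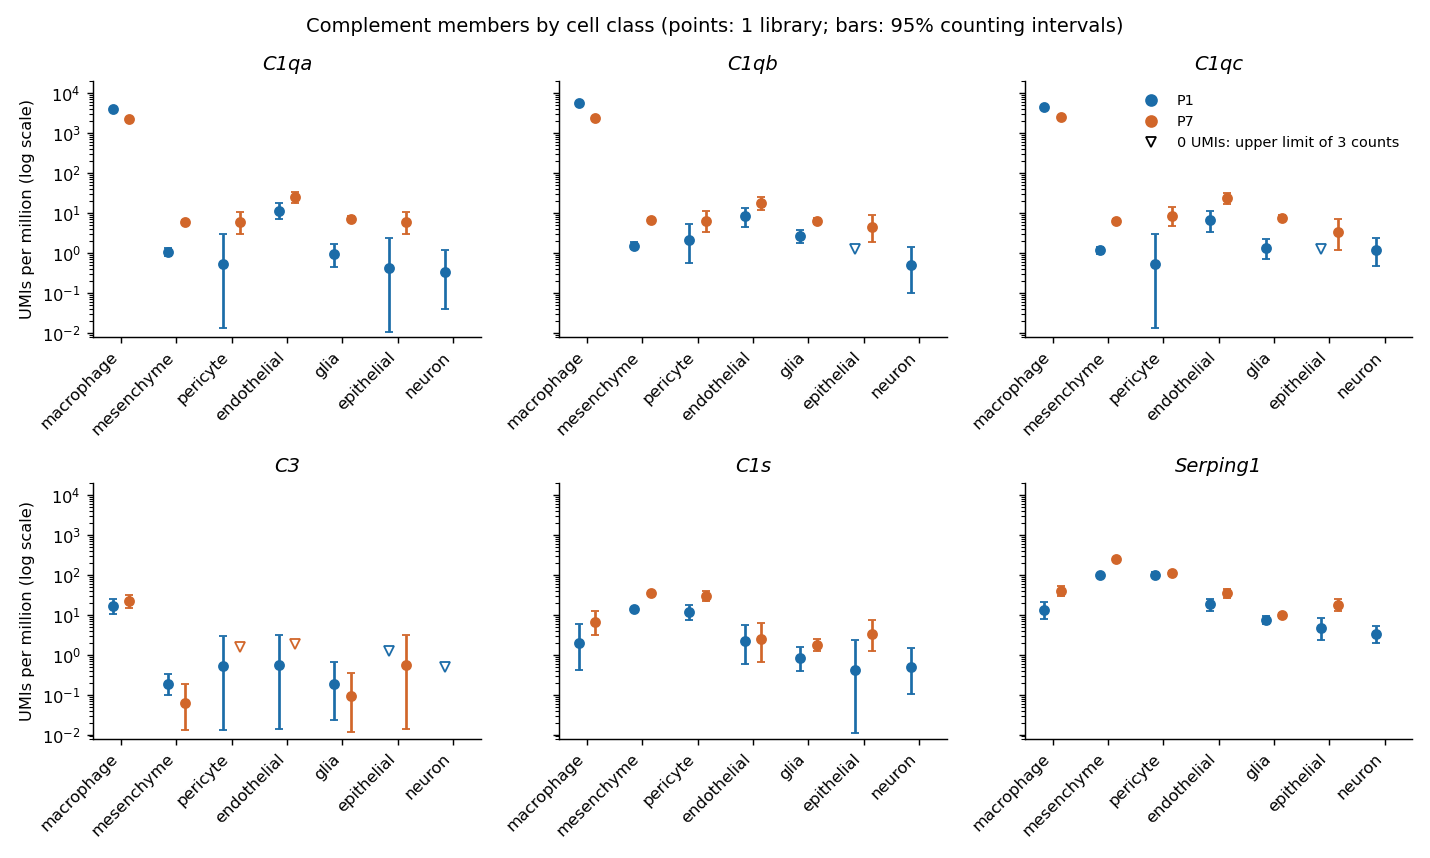
CPM (vertical, log scale) of the 6 members in each named cell class (horizontal), with P1 in blue, P7 in orange and 95% counting intervals as bars; open triangles give the upper limit of 3 counts where no UMI was found, and neuron-like cells were found at P1 only. The C1q chains and C3 are highest in the macrophage-like class, and C1s and Serping1 in mesenchyme and pericyte-like cells.

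The low C1q level outside macrophages moved with the other macrophage genes. In P7 mesenchyme the chains summed to 18.9 CPM and the 14 macrophage markers to 42.2 CPM, against 3.77 and 9.16 CPM at P1. Of the 14 markers, 13 were higher in mesenchyme at P7 beyond counting error and none was lower. Between mesenchyme, glia-like, pericyte-like and epithelial-like cells at P7, the summed C1q level lay between 13.8 and 21.3 CPM. C1q UMIs per macrophage marker UMI were 0.448 in P7 mesenchyme, 0.434 in P7 glia-like cells and 0.462 in P7 macrophage-like cells. At P1 the ratio was 0.411 in mesenchyme and 0.852 in macrophage-like cells. The chains took like shares of the C1q UMIs in mesenchyme and macrophages: C1qb made up 40.8% and 40.3% at P1, and 34.6% and 33.4% at P7. The part of free RNA in these levels was not tested.

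After thinning each cell to 2000 UMIs, which left out 125 and 175 mesenchyme cells, a C1qa UMI was found in 0.233% of mesenchyme cells at P1 and 1.17% at P7. The unthinned shares were 0.767% and 4.34%, at median depths of 6707 and 7620.5 UMIs. Glia-like cells gave 0.219% and 1.71% after thinning, at median depths of 4551 and 4879 UMIs. Whether glia-like cells make C1qa themselves was not tested. The mesenchyme share lay within the interval of the glia-like share at P1 (0.0596% to 0.559%) and below it at P7 (1.29% to 2.21%). In macrophage-like cells the thinned share was 73.6% at P1 (66.5% to 79.9%) and 84.8% at P7.

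**Figure D2:**
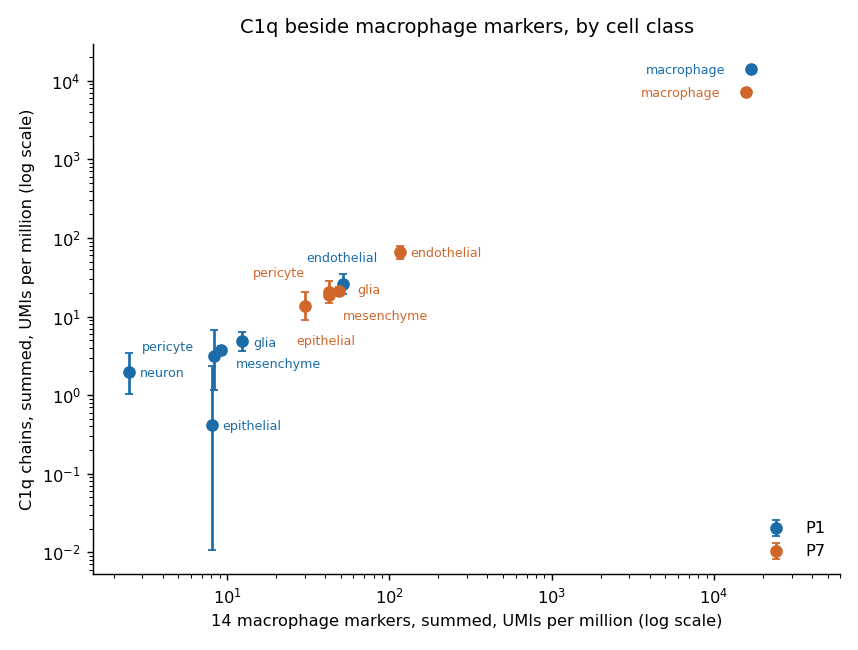
Summed C1q chains (vertical) against 14 summed macrophage markers (horizontal), both in CPM on log scales, for each named class at P1 (blue) and P7 (orange), with 95% counting intervals on C1q. Most classes other than macrophages lie at 13.8 to 21.3 CPM of C1q at P7 and under 5 CPM at P1, and endothelial-like cells lie higher at both ages.

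Macrophages were set against mesenchyme within each library, calling a gene at 2-fold or more among genes of at least 10 CPM in either class. C1qa, C1qb, C1qc and C3 were higher in macrophages at both ages, 4 of 6 members, where 15.8% of 8087 genes were so called at P1 and 13.4% of 8328 at P7. Without the cells of the macrophage-like cluster that held neutrophil markers, described below, 3 members were called at P1, since C3 was then under 10 CPM in both classes. C1s and Serping1 were higher in mesenchyme at both ages, where 25.8% of genes were so called at P1 and 20.1% at P7. The median log2 ratio of macrophages to mesenchyme over all these genes was -0.31 at P1 and -0.24 at P7. For the members, the log2 ratio of C1qa was 11.90 at P1 (11.57 to 12.25) and 8.53 at P7 (8.36 to 8.71). The ratios of C1qb and C1qc were 11.87 and 11.90 at P1, and 8.53 and 8.67 at P7. How much of the mesenchyme level was free RNA was not tested, so these ratios describe the contrast in the libraries.

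C1q differed from cell to cell within the macrophage-like cluster. At P1 the median cell held 34 C1qa, 45.5 C1qb and 36 C1qc UMIs, and the highest held 112, 162 and 156. At P7 the medians were 17, 17 and 20 UMIs, and the highest cells held 68, 68 and 82. All 3 chains were found in 72.1% of the P1 cells (65.2% to 78.4%) and 86.1% of the P7 cells (80.1% to 90.9%). No C1q UMI was found in 51 of 190 cells at P1 and 17 of 173 at P7. Few cells lay between, with 6 cells at P1 and 14 at P7 holding 1 to 9 C1q UMIs.

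Cells without C1q overlapped with cells that held neutrophil genes. At P1, 21 cells of the cluster had 2 or more UMIs over the neutrophil list, and none of them held a C1q UMI (0 of 21, which allows a share of up to 14.3%). At P7 there were 6 such cells, of which 5 held none. In the remaining cells, the share without C1q was 17.8% at P1 (30 of 169) and 7.19% at P7 (12 of 167). These neutrophil-marker cells were shallower, with a median of 4173 UMIs at P1 against 7491 in the rest. The cluster also held markers of other immune cells, some lower and some higher at P7. Cpa3 of mast cells had 40 UMIs at P1 and 0 at P7, and Atp6v0d2 of osteoclasts 82 and 1. Cd3e of lymphocytes had 2 and 17 UMIs. The part of such cells among those without C1q was not tested.

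**Figure D3:**
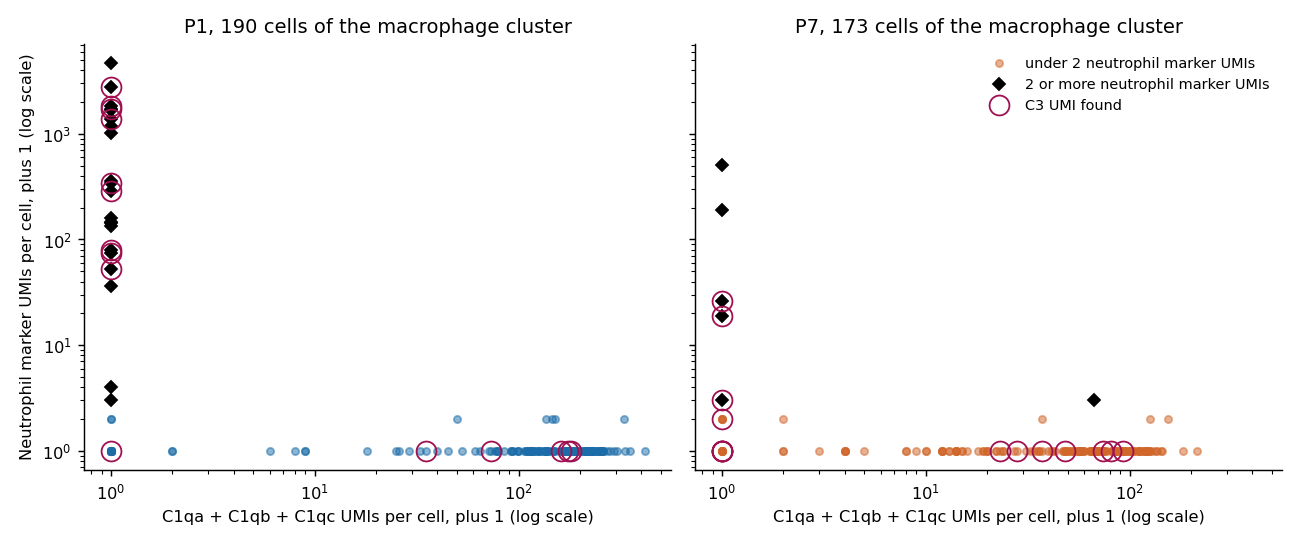
Each point is 1 cell of the macrophage cluster, by its summed C1q UMIs (horizontal) and its neutrophil marker UMIs (vertical), both plus 1 on log scales, for 190 cells at P1 and 173 at P7. Black diamonds mark cells with 2 or more neutrophil marker UMIs, and rings mark cells with a C3 UMI, many of which lie at the left edge, where no C1q was found.

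C3, the central component, was sparse. The kept cells held 44 C3 UMIs at P1 and 37 at P7, of which the macrophage-like cluster held 25 and 29. Its level there was 16.4 CPM at P1 (10.6 to 24.2) and 21.5 CPM at P7 (14.4 to 30.9), against 0.189 CPM (13 UMIs) and 0.063 CPM (3 UMIs) in mesenchyme. Within the cluster, 20 of the 25 UMIs at P1 and 18 of the 29 at P7 lay in cells without any C1q UMI. At P1, 19 of the 25 lay in the cells with neutrophil markers. Without those cells the C3 level was 4.26 CPM at P1 (6 UMIs, 1.56 to 9.27) and 19.7 CPM at P7 (26 UMIs, 12.9 to 28.9). Between the ages, C3 had a log2 ratio of 0.39 with those cells (-0.43 to 1.22) and 2.21 without (0.90 to 3.78). Their absence also lowered the log2 ratio of C3 in macrophages to mesenchyme at P1, from 6.44 to 4.50, where its level was too low for it to be called.

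C1s and Serping1 had the opposite distribution. C1s stood at 13.8 CPM in mesenchyme at P1 (951 UMIs, 12.9 to 14.7) and 34.8 CPM at P7 (1655 UMIs, 33.1 to 36.5). In macrophage-like cells it stood at 1.97 CPM (3 UMIs) and 6.67 CPM (9 UMIs). Serping1 stood at 99.0 CPM in mesenchyme at P1 and 242.7 CPM at P7, against 13.1 CPM (20 UMIs) and 39.3 CPM (53 UMIs) in macrophage-like cells. Mesenchyme was therefore the higher class for both genes, with log2 ratios of macrophages to mesenchyme for C1s of -2.81 at P1 (-5.09 to -1.26) and -2.38 at P7 (-3.51 to -1.45). For Serping1 the ratios were -2.92 (-3.63 to -2.29) and -2.63 (-3.04 to -2.24), and -3.57 and -3.35 with doublets removed. Over all alternatives the ratio of C1s at P7 lay between -3.19 and -1.63. RefSeq lists a C1s pseudogene. Whether reads of C1s are shared with it was not tested, so the counts of C1s are uncertain to that extent.

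After thinning to 2000 UMIs, a Serping1 UMI was found in 16.7% of mesenchyme cells at P1 and 37.7% at P7, against 1.69% and 5.06% of macrophage-like cells and 1.15% and 1.74% of glia-like cells. The unthinned shares were 38.8% and 71.5% in mesenchyme. The macrophage-like share was thus near that of glia-like cells at P1.

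Pericyte-like cells held C1s and Serping1 at levels near those of mesenchyme. C1s stood at 11.5 CPM there at P1 and 29.7 CPM at P7, and differed from mesenchyme by less than counting error at both ages. Serping1 stood at 100.5 CPM in pericyte-like cells at P1, within counting error of mesenchyme. At P7 it stood at 108.9 CPM, lower than in mesenchyme by a log2 ratio of 1.16 (0.96 to 1.36). Glia-like cells were low for both genes, with Serping1 at 7.58 and 9.70 CPM. Mesenchyme held 93.2% of C1s UMIs and 92.1% of Serping1 UMIs at P1, and 77.2% and 79.3% at P7, when it was 71.4% and 46.7% of the cells. Unnamed clusters held 11.9% of C1s and 11.5% of Serping1 UMIs at P7. Most of these were in cluster 6, of 1591 P7 cells, which carried mesenchyme markers but was left out of mesenchyme for its haemoglobin genes, and where C1s stood at 24.6 CPM and Serping1 at 160.7 CPM.

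Mesenchyme clusters differed widely in both genes. At P1, C1s ranged from 2.55 CPM in cluster 8 to 31.9 CPM in cluster 1, whose leading genes include Col1a1 and Col8a1. Serping1 ranged from 30.2 to 199.6 CPM in the same clusters. At P7, C1s ranged from 4.70 CPM (3 UMIs) in cluster 8 to 58.9 CPM in cluster 5, and Serping1 from 47.0 to 339.1 CPM in the same clusters. Both genes were thus lowest and highest in the same cluster at each age. Over clusters of all classes, not of mesenchyme alone, their levels had a Pearson r of 0.92. It covers 33 points, 1 for each cluster and library with at least 50 cells, and no r within mesenchyme was computed. The points share 2 libraries.

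**Figure D4:**
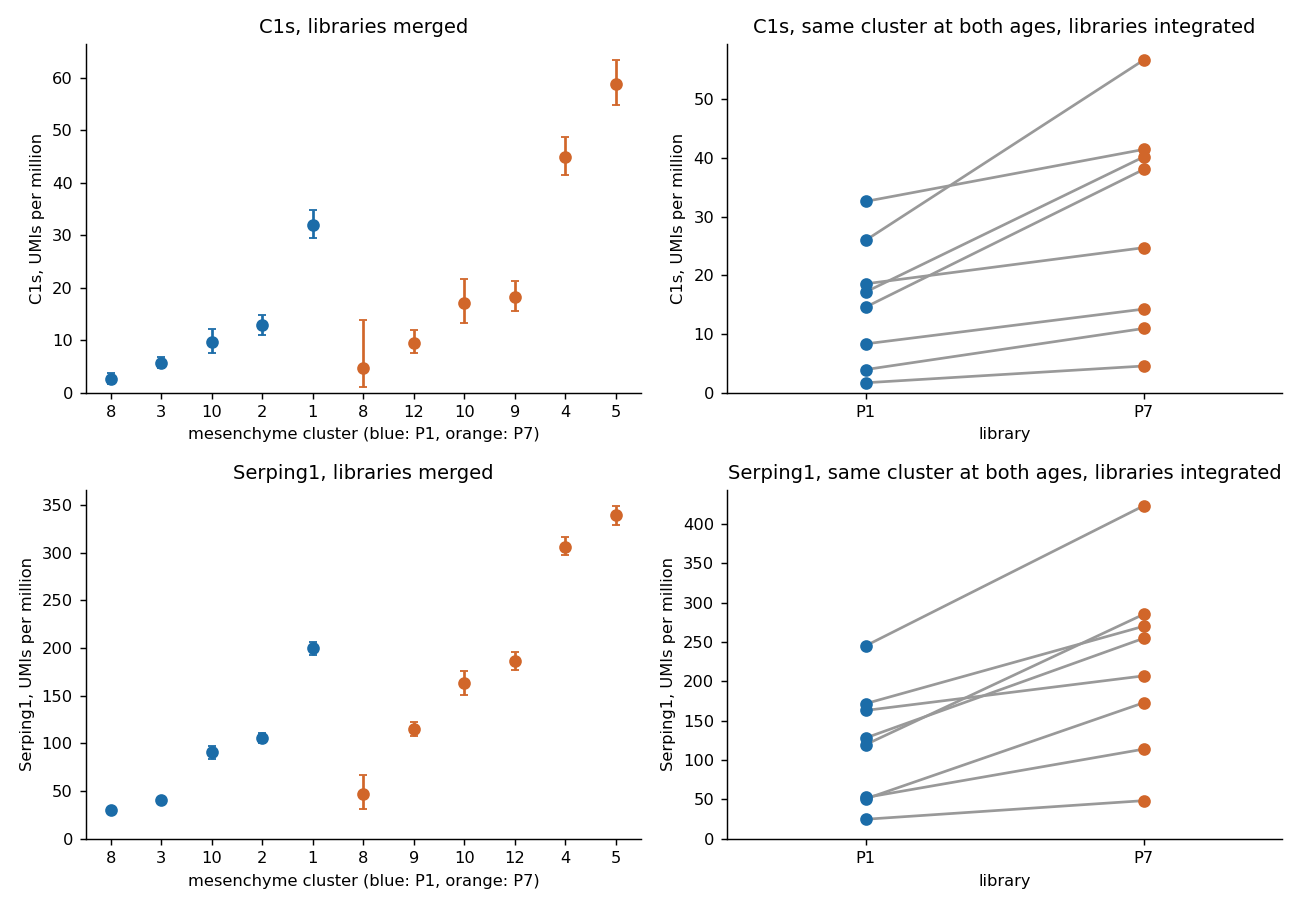
C1s (top) and Serping1 (bottom) in CPM. On the left each point is a mesenchyme cluster of the merged libraries, P1 in blue and P7 in orange, with 95% counting intervals; on the right each line joins P1 and P7 of 1 of 8 mesenchyme clusters of the integrated libraries, and every line rises.

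Within mesenchyme, C1s and Serping1 were higher at P7. The log2 ratio of P7 to P1 was 1.33 for C1s (1.22 to 1.45) and 1.29 for Serping1 (1.25 to 1.34). Both passed 2-fold, where 10.4% of 7966 genes were so called as higher and 5.65% as lower. C1q and C3 were under 10 CPM in mesenchyme and were not among the genes compared. When clusters were formed at resolution 0.4 or 1.2, or with all variable genes, neither gene reached 2-fold, and the lowest log2 ratios, at resolution 1.2, were 0.53 for C1s and 0.71 for Serping1. In clusters of the integrated libraries, a reading by cluster added after seeing the data, where both ages lie in the same clusters, Serping1 was higher at P7 beyond counting error in 8 of 8 mesenchyme clusters and C1s in 6 of 8. The median log2 ratios over these clusters were 0.98 and 1.18.

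Within macrophage-like cells the C1q chains were lower at P7. The log2 ratio of P7 to P1 was -0.86 for C1qa (-0.92 to -0.79), -1.25 for C1qb (-1.31 to -1.20) and -0.79 for C1qc (-0.85 to -0.73). C1qb passed 2-fold, where 6.94% of 7700 genes were so called as lower. Serping1 passed it in the other direction, at 1.58 (0.82 to 2.40), where 15.6% were so called as higher. Mesenchyme markers as a sum were also higher in this cluster at P7, with 14 of them summing to 1913 CPM at P1 and 3765 CPM at P7. Single markers varied, with Dcn at 49.2 and 378.2 CPM, Vcan at 19.0 and 19.3 CPM, and Coch lower at P7, at 14.4 and 8.90 CPM. The part of mesenchyme markers in the Serping1 difference was not tested. The macrophage markers summed to 16756 CPM in the P1 cells and 15664 CPM in the P7 cells. Without the cells with neutrophil markers the ratio of the summed chains was -1.07, against -0.98 with them. The part of other immune cells in the differences with age was not tested.

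The pattern over clusters was compared with that of 12589 genes with at least 200 UMIs. For C1qc the most similar genes were Mrc1, a macrophage mannose receptor (r = 0.99), Tyrobp, Aif1, C1qb and Clec10a. C1qa and C1qb were likewise closest to Mrc1, with r = 0.99 for both. For C3, with 44 and 37 UMIs, they were Fcgr3a, Plek, RT1-Da, Nfam1 and RT1-Ba, with r = 0.99 for the first. Macrophage-like cells formed 1 cluster, so each r of the C1q chains and C3 rests mainly on 2 of the 33 points, 1 for each library. Genes held mainly by that cluster score nearly alike, as Mrc1 (0.9892) and C1qb (0.9891) do for C1qa, so the order within these lists carries little weight. C1s came closest to Tgfb3, Serping1, Foxd1, Col8a1 and Plac9, and Serping1 to Sertad4, C1s, Crtapl1, Foxc2 and Cpm, with r of 0.93 for the first of each.

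Of the other complement genes on the list, 44 of 50 were found by symbol and 30 had at least 20 UMIs in a library. At P1, 8 of the 30 were at least 2-fold higher in macrophages, 3 were higher in mesenchyme, 3 were not called and 16 were under 10 CPM in both classes. Of all genes of at least 10 CPM in either class, 15.8% were called higher in macrophages and 25.8% in mesenchyme at P1. At P7 the counts of the complement genes were 6, 4, 5 and 15, where the shares of all genes were 13.4% and 20.1%.
Among the initiators and proteases, C1r, the partner protease of C1s, stood at 65.2 CPM in mesenchyme and 5.25 CPM in macrophage-like cells at P1, and at 123.9 and 23.0 CPM at P7. C1r was highest in pericyte-like cells at both ages, at 102.6 and 147.1 CPM. Colec11, a lectin of the lectin pathway, was also higher in mesenchyme than in macrophage-like cells, at 32.1 against 4.59 CPM at P1. Fcnb, a ficolin, stood at 178.5 CPM in macrophage-like cells at P1 and 83.1 CPM at P7. C2 stood at 11.8 CPM in them at P1 and 4.45 CPM at P7. Levels here and below include the cells of that cluster with neutrophil markers, 21 of 190 at P1 and 6 of 173 at P7. Their part in these levels was not tested.
In the alternative pathway, Cfd (factor D) stood at 381.9 and 334.4 CPM in macrophage-like cells, and Cfp (properdin) at 300.5 and 269.9 CPM. Cfd was also found in mesenchyme, at 7.21 CPM at P1 and 22.1 CPM at P7.
Among the terminal components, C7 stood at 9.80 CPM in mesenchyme at P1 and 27.8 CPM at P7.
Of the receptors, C5ar1, which binds the C5a fragment, stood at 104.3 CPM in macrophage-like cells at P1 and 198.0 CPM at P7, and Itgb2, a chain of complement receptor integrins, at 57.7 and 63.0 CPM.
Among the regulators, Clu (clusterin) stood at 210.5 CPM in mesenchyme at P1 and 552.0 CPM at P7, and was highest in epithelial-like cells at both ages. Cd59 was at like levels in both classes, at 57.1 and 81.6 CPM at P1.
Within mesenchyme, 20 of the 30 genes were under 10 CPM at both ages and were not compared. Of the other 10, 4 were at least 2-fold higher at P7 (Cfd, C7, Clu and Vtn), where 10.4% of all genes were so called, and none was 2-fold lower. Of these, Vtn was highest in pericyte-like cells at both ages. Genes not compared went both ways beyond counting error, all at low levels. Masp1 was lower at P7, with a log2 ratio of -1.85 (-2.31 to -1.41), as were Itgb2, at -2.61 (-4.12 to -1.39), Csmd1 and Cd55. C5ar1 was higher, at 4.44 (2.46 to 7.55), as were Cfi, at 3.40 (2.48 to 4.46), Cfb, C6, C9 and Cfp. Within macrophage-like cells 14 of the 30 were not compared. Of the other 16, 3 were at least 2-fold higher at P7 (C1r, Colec11 and Vtn), where 15.6% of all genes were so called, and 3 were lower (C2, Fcnb and Itgam), where 6.94% were. The intervals of Colec11 (-0.23 to 2.73) and Itgam (-2.96 to 0.08) include 0, so these 2 did not differ beyond counting error. The part of the neutrophil-marker cells in the lower levels of C2, Fcnb and Itgam was not tested.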

How the data were processed

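Droplet 3′ libraries of P1 and P7 cochlear duct were aligned by the authors to rn6 with Cell Ranger (3.1.0 by the file header), and UMI counts per gene and barcode were deposited. The limits on cells were those of the study's methods: a gene number above 500 and below 5000, a total of 500 UMIs or more, and mitochondrial UMIs below 25%. Counts of both libraries were merged, scaled to 10000 per cell and clustered in Seurat 5.3.0 on 1871 variable genes, without the markers and complement genes (10 principal components, 20 neighbours, resolution 0.8). A cluster was named where a marker list led it (mean log2 ratio of at least 1 to other cells, 3 markers in 10% of cells). Mesenchyme was compared with clusters led by another list, at a ratio of at least 0.5. The naming rule dates from after a look at the clusters, so the names are rebuilt. Clusters with haemoglobin genes among their leading genes or with a second list were left out of both classes. Scrublet (scanpy 1.11.5) marked 622 and 775 cells as doublets, 13.7% and 14.5% of macrophage-like cells. They were kept in the main values.

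Levels are CPM, the summed UMIs of a gene over those of all genes in the class. Intervals are exact Poisson for levels, Clopper-Pearson for shares and conditional binomial for ratios. The computation of ratios and intervals was checked on simulated counts. The members and lists were chosen with earlier results of these data known. The named genes were the members, listed complement genes with at least 20 UMIs in a library (values of 1 of them are not reported here), and the 5 genes most similar to each member (r of log2 of CPM plus 5). Alternatives were other clusterings, cell filters and scalings. The design has no test, since each age was 1 library.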

Additional observations from a re-analysis of the deposited data

Results flagged for a closer look

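The C1q chains moved in opposite directions with age in the 2 classes, and the difference between the classes was not tested. Within macrophage-like cells the log2 ratio of P7 to P1 was -0.86 for C1qa, -1.25 for C1qb and -0.79 for C1qc. Within mesenchyme it was 2.51, 2.09 and 2.43, at levels under 10 CPM that moved with the summed macrophage markers, whose log2 ratio there was 2.20 (2.07 to 2.33).

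Barcodes outside the limits on cells, which no comparison used, held 182 C1q UMIs at P1 and 1761 at P7, or 0.814% and 13.2% of all C1q UMIs of the library. At P7, 56 of these barcodes held 10 or more C1q UMIs, against 3 at P1, and 50 of the 56 failed the limit on mitochondrial UMIs. Their part in the lower C1q of P7 macrophage-like cells was not tested.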

How the results depend on the processing

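The counts of members higher in macrophages or in mesenchyme stayed within 1.5 times their main values under all 13 alternatives, though 3 members in place of 4 were higher in macrophages at P1 with neutrophil-marker cells left out, where the call of C3 was lost. Of the members changed with age within mesenchyme, 0 were higher at P7 at resolution 0.4, at resolution 1.2 and with all variable genes, against 2 in the main clustering; the cause was not tested. Within macrophages, 2 were lower at P7 among cells under 10% mitochondrial UMIs, against 1. With neutrophil-marker cells left out, an alternative chosen after seeing the data, 2 were higher at P7, against 1. No called log2 ratio changed sign. C3 rested on few counts, 44 UMIs at P1 and 37 at P7, and why they were few was not tested. No paired analysis was possible because each age was 1 library and the result comes from no test.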
